A study of Homo sapiens with 6 samples.

Results

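MER41 is a family of primate endogenous retroviruses, and its members here are the 9193 repeat copies whose name starts with MER41 in a table of 771683 repeat copies under 595 names. Copies were chosen by name, with no measured value used. They comprised 2941 copies of MER41B, 2640 of MER41A, 863 of MER41C, 488 of MER41D, 365 of MER41E and 120 of MER41G, which are types of the long terminal repeat (LTR), and 1776 copies of MER41-int, the internal part of the provirus. RNA came from the HaCat line, which grew out of human skin keratinocytes that became immortal in culture. In the UVB group, 3 libraries were made from cells exposed to ultraviolet B light at a dose labelled 50 mJ, with no area given, and cultured for 24 h. In the control group, 3 libraries were made from the same line without UVB. The question in the study's title is whether UV raises the expression of endogenous retroviruses and so triggers the RNA sensor RIG-I. The labels do not state separate cultures for the 3 libraries of a group, and the p-values therefore cover the spread among these libraries, which may be technical.

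An LTR holds the promoter and enhancer of a retrovirus, and most copies in the genome are solitary LTRs whose internal part was lost by recombination. Interferon gamma signals through its receptor and the kinases JAK1 and JAK2, and several MER41 LTRs, MER41B above all, can act as interferon-inducible enhancers. In HeLa cells, a human cervical cancer line, MER41 copies near AIM2, APOL1, IFI6 and SECTM1 have been tied to the response to interferon gamma, and the copy near AIM2 is needed for its induction. Such a copy acts as DNA, as an enhancer of a neighbouring gene, so RNA reads over MER41 copies measure neither factor binding nor enhancer activity. Reads over a copy can come from a transcript that starts in the LTR or from a longer transcript that runs through it. These cannot be told apart here, because the positions of the copies and the genes that hold them were not used.

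The promoters of the genes tied to MER41 are shown because 2 of these genes changed with UVB. RefSeq (GRCh38.p14) gave windows of 250 bases before to 50 bases after the start for 3 of the 4 genes, AIM2, IFI6 and SECTM1. These are gene promoters and not MER41 copies. Capitals mark matches, on either strand, to the core of the interferon-stimulated response element, which is GAAA, any 2 bases and GAAA again, a site of many interferon-induced genes. No search of the MER41 copies was made.
IFI6, chr1:27672143-27672442, minus strand: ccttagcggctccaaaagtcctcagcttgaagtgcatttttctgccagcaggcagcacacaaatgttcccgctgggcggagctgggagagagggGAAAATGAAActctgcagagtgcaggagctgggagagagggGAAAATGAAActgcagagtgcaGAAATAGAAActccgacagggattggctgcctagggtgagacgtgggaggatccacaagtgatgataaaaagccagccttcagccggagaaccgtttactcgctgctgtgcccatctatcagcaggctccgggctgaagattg
SECTM1, chr17:82333717-82334016, minus strand: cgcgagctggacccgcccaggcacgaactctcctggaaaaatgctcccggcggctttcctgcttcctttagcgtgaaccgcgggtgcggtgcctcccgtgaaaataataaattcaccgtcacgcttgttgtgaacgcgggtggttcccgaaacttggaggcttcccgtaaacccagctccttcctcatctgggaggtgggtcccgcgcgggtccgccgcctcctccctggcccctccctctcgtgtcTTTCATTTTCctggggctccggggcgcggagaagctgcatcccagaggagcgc
AIM2, chr1:159076717-159077016, minus strand: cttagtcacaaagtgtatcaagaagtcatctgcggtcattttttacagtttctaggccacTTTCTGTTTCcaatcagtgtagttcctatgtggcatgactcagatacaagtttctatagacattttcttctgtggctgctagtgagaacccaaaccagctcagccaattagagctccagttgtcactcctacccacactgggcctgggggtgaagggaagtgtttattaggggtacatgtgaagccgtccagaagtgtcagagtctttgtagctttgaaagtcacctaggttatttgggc
IFI6 held 3 matches, at positions 95, 136 and 158 counted from the 5′ end of its window, SECTM1 held 1 at position 248 and AIM2 held 1 at position 61. This core occurred in 1255 of 35116 RefSeq promoter windows of that length, or 3.57%, and in 7 of the 23 windows found for an interferon pathway list. The core of the gamma-activated site, TTCNNNGAA, was in none of the 3 windows, against 2689 of all 35116 (7.66%) and 6 of the 23. Neither a match nor its absence says whether any factor binds. The genes were chosen for their tie to the interferon response, so the matches do not test that tie.

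The libraries held 72517243 to 88484020 assigned reads after UVB and 66272443 to 81303733 in controls. This takes each unit recovered from FPKM (assigned reads per 1000000, divided by length in kilobases) as a read, which is not known. Some low genes held several units at once, such as AIM2 with 12 and 8 where it was not 0. If a gene unit is more than 1 read, the shares of repeats and MER41 are understated. Repeats took 0.750%, 0.791% and 0.771% of assigned reads after UVB and 0.829%, 0.959% and 0.787% in controls (0.771 ± 0.0208% and 0.858 ± 0.0893%, SD, n = 3 each; two-sided exact permutation p = 0.2). Control replicate 2 stood highest in repeats and in MER41, and results that turn on it are given without it. All 8 keratinocyte markers on the list averaged at least 1 FPKM. KRT5 averaged 122 FPKM after UVB and 287 FPKM in controls, whereas its partner KRT14 averaged 1.73 FPKM after UVB and 1.02 FPKM in controls, low for a basal keratinocyte keratin. The summed level of the 8 was 547 to 633 FPKM after UVB and 815 to 984 FPKM in controls, and 4 of the 8 fell and 1 rose (limma on log2(FPKM + 1), adjusted p under 0.05), where 11.0% of 14921 tested genes fell and 17.0% rose. The other 3 of the 8, TP63, CDH1 and EGFR, did not pass. SFN and KRT5, both lower after UVB, had the highest control means of the 8 and weigh most in the sum. Of the lists for other skin cells, 1 of 6 melanocyte, 1 of 6 fibroblast, 0 of 4 leukocyte and 1 of 4 endothelial markers passed the level filter of 0.5 FPKM. Among these the fibroblast collagen COL1A1 rose, at 1.75 ± 0.132 FPKM after UVB and 0.778 ± 0.137 FPKM in controls (log2 fold change 0.63, limma adjusted p = 0.0040), and the endothelial cadherin CDH5 averaged 7.11 ± 1.58 FPKM after UVB and 4.78 ± 0.515 FPKM in controls (SD, n = 3 each) and did not pass (0.47, limma adjusted p = 0.0559). The markers TYR, CD3E, LYZ and KDR were at 0 in every library. In bulk RNA, fewer cells of a type and less RNA per cell cannot be told apart.

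MER41 RNA as a whole did not pass a test of difference. Summed over all copies, MER41 took 86.8, 91.4 and 83.7 reads per 1000000 assigned reads (RPM) after UVB and 99.3, 110 and 85.5 RPM in controls. The highest UVB library lay above the lowest control, so the groups overlapped. The means were 87.3 ± 3.83 and 98.4 ± 12.5 RPM (SD, n = 3 each), a log2 ratio of -0.17 (two-sided exact permutation p = 0.3, where 3 against 3 libraries cannot go below 0.1). The log2 ratio was -0.08 without control replicate 2 and -0.26 without control replicate 3. These sums rest on 6297, 8085 and 6644 reads after UVB and 6892, 7315 and 6948 reads in controls.

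The share of MER41 among repeat reads was nearly level. It was 1.16%, 1.15% and 1.09% after UVB and 1.20%, 1.15% and 1.09% in controls (1.13 ± 0.0408% and 1.15 ± 0.0570%, SD, n = 3 each; two-sided exact permutation p = 1). Set against gene reads alone, MER41 averaged 88.0 ± 3.88 reads per 1000000 after UVB and 99.3 ± 12.7 in controls (exact permutation p = 0.3). MER51, MER52 and MER57, other families of the same retroviral class, had somewhat larger differences, with non-overlapping groups. Of all single repeat names tested, 23.7% had all 3 UVB values below all 3 control values. MER51 totals had a log2 ratio of -0.35, MER52 of -0.25 and MER57 of -0.31, each at the smallest exact permutation p this design allows, 0.1. PRIMA41 totals had a log2 ratio of -0.29 with overlapping groups (exact permutation p = 0.3). The difference between these families and MER41 was not tested.

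All 7 MER41 names had lower mean RPM after UVB, a direction that turned for 4 of them under another scaling described below, and none passed the test across the 577 repeat names with a mean of at least 0.1 RPM (limma on log2(RPM + 0.1), Benjamini-Hochberg adjusted p under 0.05). In that test 7 names, 1.21%, were called, all of them lower, and 0 names were called higher. The lower values were not particular to MER41: the median over all tested names was -0.18, 82.0% were negative, and the median of the MER41 names was -0.17. All names come from the same 6 libraries, so the share of negative names does not count separate results. In the fit of single repeat copies, the median over all tested copies was -0.04, and -0.006 without control replicate 2. Copies were fitted on log2(FPKM + 1), which shrinks fold changes at low levels, so these medians are not on the scale of the names. On recovered reads of the same copies the median was -0.105 in edgeR and -0.088 in DESeq2.

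MER41-int had the lowest fold change of the 7. It measured 19.4, 19.5 and 19.3 RPM after UVB and 23.5, 27.6 and 21.9 RPM in controls, so the groups did not overlap. Of all tested names, 23.7% had all 3 UVB values below all 3 control values, and 1.56% had them above. The log2 fold change was -0.32 with a 95% interval of -0.57 to -0.06 (limma adjusted p = 0.189) and -0.22 without control replicate 2, and MER41-int made up 23.5% of MER41 reads.

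MER41A, the name with most reads (33.9%), measured 28.6, 30.9 and 29.0 RPM after UVB and 34.7, 36.8 and 28.9 RPM in controls. The third control lay within the UVB values. Its log2 fold change was -0.17 (95% interval -0.42 to 0.07, limma adjusted p = 0.414).

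MER41B, whose LTR is the one best known as an interferon-inducible enhancer, measured 23.9, 26.5 and 20.8 RPM after UVB and 24.0, 27.7 and 20.7 RPM in controls. The groups overlapped almost fully, as the plot of RPM by library shows. The log2 fold change of -0.02 had a 95% interval of -0.28 to 0.24 (limma adjusted p = 0.949).

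**Figure D1:**
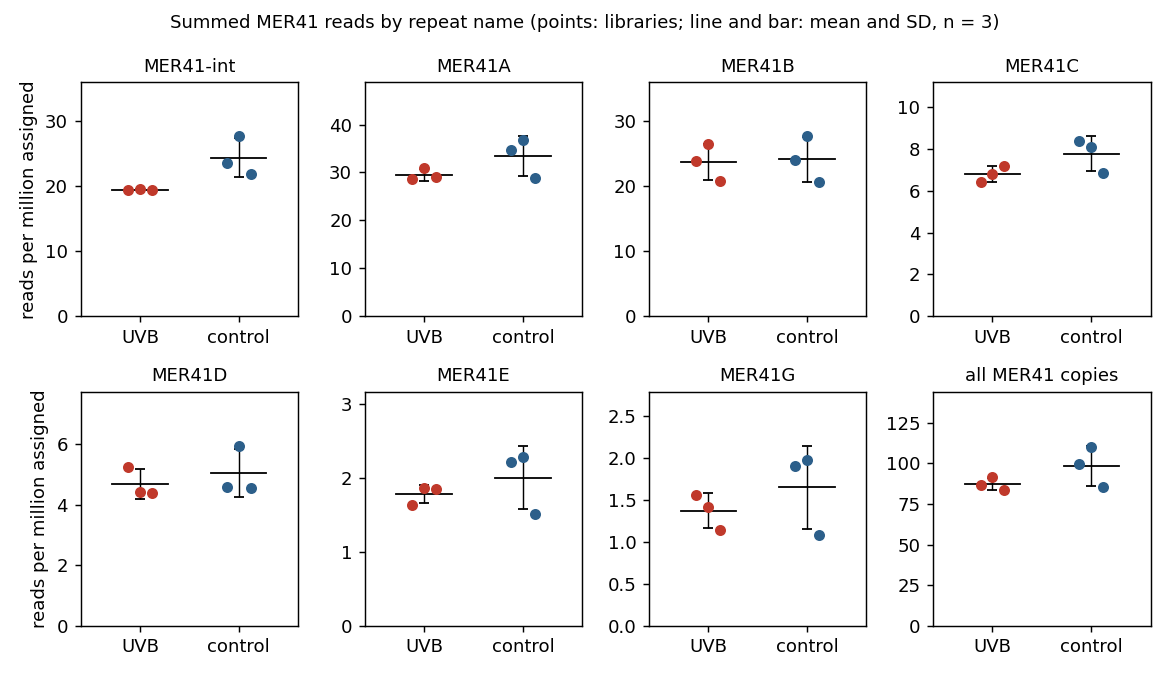
Reads per 1000000 assigned reads (RPM) for the 7 MER41 names in the 3 UVB and 3 control libraries, with the mean and SD of each group. MER41-int is the single name here whose UVB and control libraries do not overlap, at 19.3 to 19.5 RPM after UVB and 21.9 to 27.6 RPM in controls.

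The 4 smaller LTR types overlapped between groups as well. MER41C averaged 6.80 ± 0.386 RPM after UVB and 7.78 ± 0.831 RPM in controls, a log2 fold change of -0.19. MER41D averaged 4.68 ± 0.484 and 5.03 ± 0.792 RPM in UVB and control libraries, a log2 fold change of -0.10. MER41E averaged 1.79 ± 0.126 RPM after UVB and 2.01 ± 0.431 RPM in controls, a log2 fold change of -0.14. MER41G averaged 1.37 ± 0.208 RPM after UVB and 1.65 ± 0.496 RPM in controls (SD, n = 3 each throughout), a log2 fold change of -0.22. Their limma adjusted p-values were 0.512, 0.803, 0.795 and 0.663. Single libraries moved the smallest names most, with MER41G at -0.07 without control replicate 2 and -0.48 without control replicate 3, and MER41E at -0.04 and -0.32 without the same libraries. Relative to annotated length, levels ran after UVB from 0.0129 RPM per kilobase for MER41E to 0.0323 for MER41D, and in controls from 0.0145 for MER41E to 0.0363 for MER41G. MER41-int, at 0.0156 after UVB and 0.0196 in controls, lay nearer to MER41E than to MER41A, at 0.0296 and 0.0335.

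The direction of most names depended on the scale. Rescaling by TMM (trimmed mean of M values) factors computed over repeat names moved the median of all names by 0.18 to -0.0016, and MER41A, MER41B, MER41D and MER41E then had positive log2 fold changes of 0.006, 0.16, 0.08 and 0.03. MER41-int stayed negative at -0.14, with a 95% interval of -0.29 to 0.009, as did MER41C at -0.01 and MER41G at -0.05. On that scale 8 names were called higher and 3 lower, none of them MER41. TMM factors computed over genes moved the names the other way, to a median of -0.23. With these gene factors 23 names were called lower and 0 higher, none of them MER41. All 7 MER41 names were then negative, from -0.37 for MER41-int (limma adjusted p = 0.0665) to -0.07 for MER41B. The MER41 total had a log2 ratio of -0.22 with the gene factors (exact permutation p = 0.2). In the plot of the deposited scale and the scale over repeat names, each MER41 name moves with the median of all repeat names. This follows from the method, which divides all names of a library by the same factor. Without control replicate 2, on the deposited scale, MER41B stood at 0.08 and MER41D at 0.03.

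**Figure D2:**
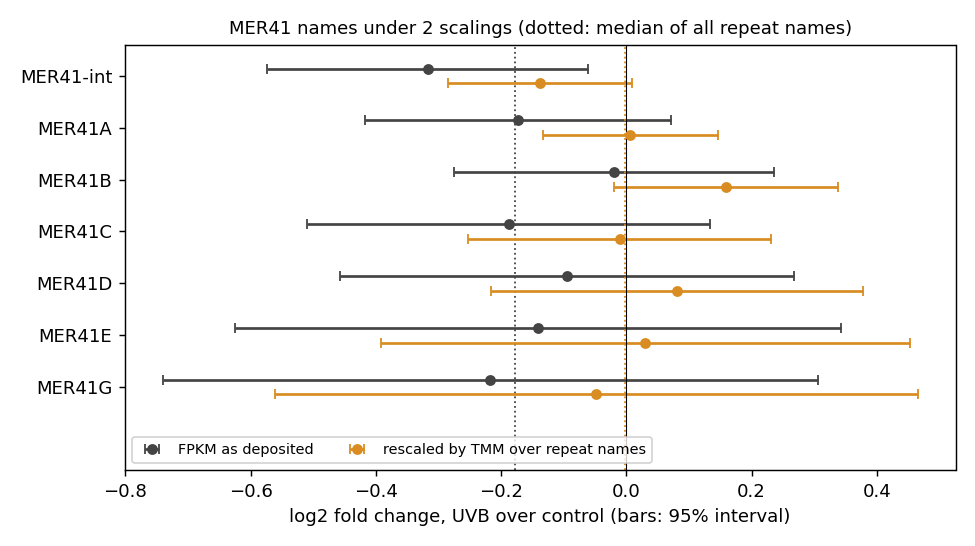
Log2 fold change of each MER41 name, UVB over control, with its 95% interval from limma, for FPKM as deposited and after rescaling by TMM factors over repeat names. Dotted lines are the medians of all 577 tested names, at -0.18 and -0.0016, and the rescaling carries MER41A, MER41B, MER41D and MER41E across 0.

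Most MER41 copies had no RNA read. Of the 9193 copies, 7526 had no read in any library and 1667 had at least 1, which is 18.1%, against 14.3% of all repeat copies. The share with a read ran from 13.3% for MER41G and 15.3% for MER41E to 18.4% for MER41B and 19.7% for MER41A. Per library, 677, 729 and 717 MER41 copies had a read after UVB and 766, 819 and 721 in controls (two-sided exact permutation p = 0.2), and all repeat copies with a read numbered 43443 to 49827 after UVB and 49049 to 55017 in controls. A read in all 6 libraries was found for 228 MER41 copies, or 2.48%, against 1.93% of all repeat copies. The median MER41 copy was 427 bases long and the median repeat copy 326 bases.

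Reads were held by few copies. A MER41 copy with any read had a median of 8 over all 6 libraries, and the 10 copies with most reads held 17.4% of MER41 reads and the top 100 held 53.4%. For all repeats the top 10 held 11.9% and the top 100 held 23.4%. These 2 sets differ in size, so the shares are descriptions.

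Of the 9193 copies, 109 averaged at least 0.5 FPKM and were tested copy by copy, and 1558 copies with a read fell below that level. The tested copies held 46.1% of MER41 reads and averaged up to 9.03 FPKM, with a median of 0.922 FPKM. None was called higher or lower (limma on log2(FPKM + 1), Benjamini-Hochberg over 7745 repeat copies, lowest adjusted p = 0.139), against 0.284% of all tested copies, 0.155% higher and 0.129% lower. At an unadjusted limma p under 0.05 there were 9 copies, 4 higher and 5 lower, which is 8.26% of the 109, against 10.8% of all tested copies. edgeR on recovered reads called 0 of the same 109 copies and had 10 at an unadjusted p under 0.05, and DESeq2 called 1 higher and 1 lower, both described below.

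Log2 fold changes of the 109 copies ran from -0.93 to 1.03, with quartiles of -0.27 and 0.17, close to -0.26 and 0.18 for all tested copies. There were 56 negative and 53 positive values, and the median was -0.02 (-0.04 for all tested copies). Values of all 3 UVB libraries lay above all 3 controls for 6 copies, where 6.71% of all tested copies did so, and below them for 14 copies, where 9.83% did so. The scatter of fold change against level shows MER41 copies on both sides of 0.

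**Figure D3:**
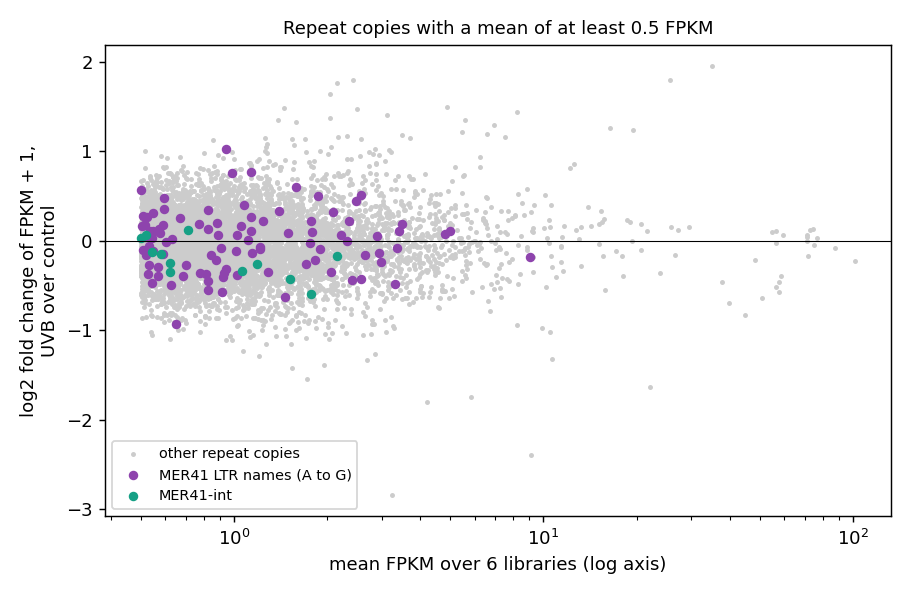
Log2 fold change of FPKM + 1, UVB over control, against the mean FPKM over 6 libraries (log axis) for repeat copies with a mean of at least 0.5 FPKM, with the 109 MER41 copies coloured as LTR or MER41-int and other copies in grey. MER41 copies lie within the grey cloud on both sides of 0, 56 negative and 53 positive.

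The copies are known here by their row labels. The highest level was that of Repeat_3239746.522427, a MER41A stretch of 158 bases, with 71, 135 and 118 reads after UVB and 118, 110 and 98 reads in controls. Its groups overlapped, at 8.42 ± 1.93 FPKM after UVB and 9.63 ± 1.74 FPKM in controls (SD, n = 3 each), a log2 fold change of -0.18 that was 0.0004 without UVB replicate 1. Among MER41-int copies most reads fell on Repeat_1459788.224902, of 2025 bases. It had 147, 185 and 146 reads after UVB and 160, 238 and 208 reads in controls, a log2 fold change of -0.26 (limma adjusted p = 0.698). Its UVB libraries all lay below the controls in FPKM.

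Copies with most reads of the other names did not pass either. For MER41B this was Repeat_1735.343, with 118, 181 and 83 reads after UVB and 84, 108 and 74 in controls. For MER41D it was Repeat_1856623.278833, with 114, 96 and 50 reads after UVB and 46, 62 and 54 in controls. Both had higher means after UVB but overlapping groups, with log2 fold changes of 0.22 and 0.32 and limma adjusted p-values of 0.786 and 0.692. The MER41C copy Repeat_4287055.696980 had 46, 129 and 79 reads after UVB and 68, 101 and 82 in controls, and its log2 fold change of -0.16 became 0.05 without UVB replicate 1. The MER41E copy Repeat_28027.3943 had 24, 23 and 9 reads after UVB and 8, 10 and 23 in controls, and was below the level filter. The MER41G copy Repeat_2508638.386314 had 38, 36 and 9 reads after UVB and 13, 18 and 19 in controls, a log2 fold change of 0.17. For each of these 5 copies the SD among UVB libraries exceeded the difference between the group means in FPKM.

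A set of near-equal MER41A copies took a large part of that name. Among 12 MER41A copies of exactly 435 bases, 7 had reads, and Repeat_1465096.225863, Repeat_1466042.225974 and Repeat_1467404.226078 held 18.4% of all MER41A reads. The first had 193, 218 and 135 reads after UVB and 145, 151 and 147 in controls. The second had 181, 214 and 129 after UVB and 143, 141 and 150 in controls, and the other 132, 154 and 91 after UVB and 99, 99 and 105 in controls. Their counts ran in parallel from library to library, with UVB replicates 1 and 2 above the controls and UVB replicate 3 below them. Each also has a partner row of 124 bases with the same first number in its label. Copies this alike in length and counts may share reads, and how the authors' counting split them is not given in the sources used here, so their separate values are uncertain.

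Summed, the 3 copies had 6.98, 6.62 and 4.47 RPM after UVB and 5.58, 5.90 and 4.94 RPM in controls, a log2 ratio of 0.12 (two-sided exact permutation p = 0.6). The rest of MER41A had 21.7, 24.3 and 24.5 RPM after UVB and 29.1, 30.9 and 23.9 RPM in controls, a log2 ratio of -0.25 (exact permutation p = 0.3). The sign of the sum and of the rest thus differed, and neither passed.

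Row labels carry 2 numbers, and rows can share the first, whose meaning the file does not state. The 9193 MER41 rows carry 6018 first numbers. Of these, 4233 occur on 1 MER41 row and 1785 are shared by 4960 rows, up to 19 on 1 number. A MER41-int row and an LTR row occur together on 388 numbers, and 573 rows of other names share a number with MER41, 220 of them PRIMA41-int and 139 PABL_A-int. The 109 tested copies carry 78 first numbers, and whether rows that share one are independent was not tested.

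Rows of 1 number were not alike between groups. On number 325689 the MER41-int row Repeat_325689.45973 had 148, 135 and 81 reads after UVB and 168, 176 and 189 in controls. The MER41B row Repeat_325689.45972 had 51, 95 and 58 reads after UVB and 47, 57 and 58 in controls. By reads, Repeat_325689.45973 was thus lower in each UVB library than in any control, whereas Repeat_325689.45972 was not. This number was picked among 1785 shared ones after its values were seen, and the contrast of its rows was not tested. Of all tested repeat copies, 9.83% had all 3 UVB values below all 3 control values in FPKM. The other MER41-int row of that number had 4, 7 and 6 reads after UVB and 6, 9 and 9 in controls, with overlap. The other MER41B row had 14, 11 and 9 reads after UVB and 2, 20 and 17 in controls.

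The copy with the highest fold change, the MER41B copy Repeat_2607824.402066 of 315 bases, rested on 2 libraries. It had 34, 100 and 3 reads after UVB and 3, 3 and 4 reads in controls. UVB replicates 1 and 2 stood far above the controls, whereas replicate 3 lay among them. The log2 fold change of FPKM was 1.03 ± 0.395 (SE, limma adjusted p = 0.363) and 0.54 without UVB replicate 2, and the ratio of summed RPM was 12.4 (95% interval 6.52 to 26.4, counting error only) and 5.29 without UVB replicate 2. It is the MER41 copy among the 74 copies for which the authors deposited counts as increased, so it was picked on these libraries. It is also the copy that DESeq2 called higher, at a log2 fold change of 3.56 and an adjusted p of 0.0105, where 0.955% of tested copies were called. A single library held over 50% of reads for this copy, for Repeat_1931302.289080 (MER41D; 4, 5 and 24 reads after UVB, 4, 0 and 2 in controls) and for Repeat_2508589.386301 (MER41E; 6, 3 and 15 reads after UVB, 44, 11 and 2 in controls), that is for 3 of the 109, or 2.75%, against 1.46% of all tested copies.

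A steadier difference was seen for the MER41B copy Repeat_2523782.387587, of 493 bases. It had 72, 68 and 56 reads after UVB and 13, 11 and 43 reads in controls. The groups did not overlap, though control replicate 3 stood well above the other controls. On log2(FPKM + 1) it differed by 0.76 ± 0.237 (SE, limma adjusted p = 0.255), and the ratio of summed RPM was 2.64 (95% interval 1.99 to 3.54, counting error only). With 1 library left out, this ratio ran from 2.19 without control replicate 2 to 4.61 without control replicate 3. Repeat_477624.70797, also MER41B and 114 bases long, had 11, 17 and 13 reads after UVB and 5, 2 and 5 in controls, without overlap (0.75 ± 0.212, SE, limma adjusted p = 0.206). Repeat_477624.70799, on the same first number, had 23, 6 and 7 reads after UVB and 4, 5 and 5 in controls, a difference carried by UVB replicate 1.

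The lowest adjusted p belonged to a lower copy. The MER41A copy Repeat_1865845.279995, of 427 bases, had 2, 3 and 8 reads after UVB and 33, 45 and 28 reads in controls. All UVB libraries lay far below all controls, at 0.127 ± 0.0951 FPKM after UVB and 1.17 ± 0.395 FPKM in controls (SD, n = 3 each). On log2(FPKM + 1) the difference was -0.93 ± 0.233 (SE, limma adjusted p = 0.139), and controls exceeded UVB 9.03-fold in summed RPM (95% interval 5.06 to 17.5, counting error only). With 1 library left out, this ratio ran from 7.42 without UVB replicate 2 to 15.7 without UVB replicate 3. edgeR gave an adjusted p of 0.0944 and DESeq2 an adjusted p of 0.00100, so the call rests on the tool. The MER41B copy Repeat_4227052.689580 had 27, 14 and 18 reads after UVB and 39, 47 and 45 in controls (log2 fold change -0.55, limma adjusted p = 0.368). The other 3 of the 5 lowest were Repeat_2716633.420802 (MER41A, -0.63), Repeat_2475754.382477 (MER41-int, -0.59) and Repeat_3622651.585802 (MER41G, -0.57), each with non-overlapping groups and none past the threshold.

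**Figure D4:**
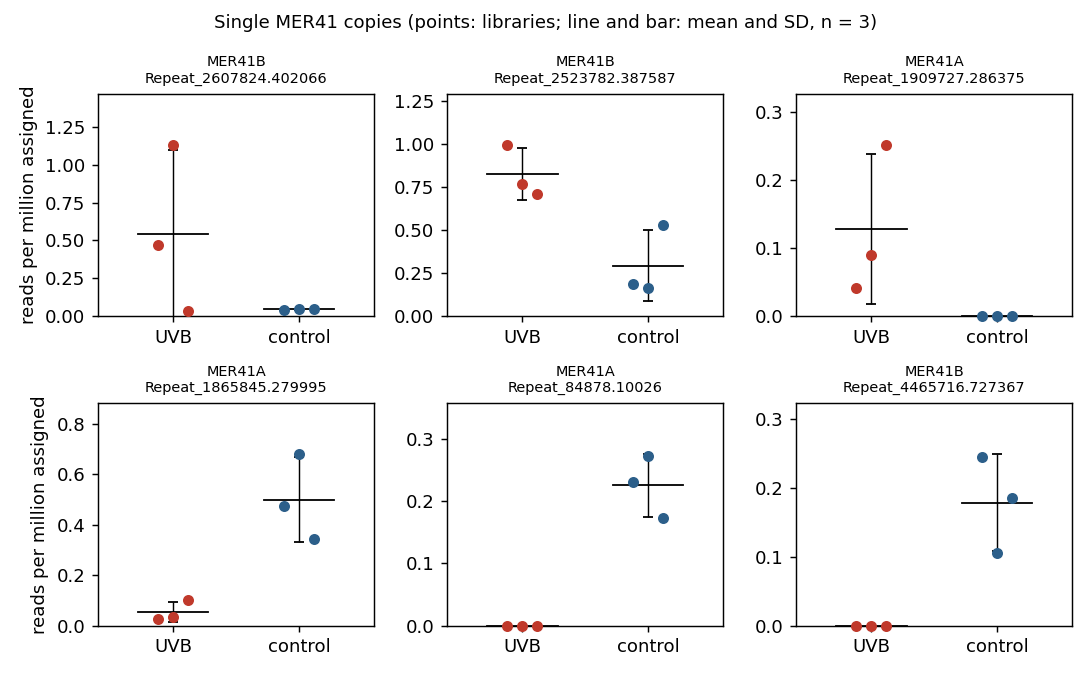
Reads per 1000000 assigned reads (RPM) of 6 MER41 copies in each library, UVB left of control, with the mean and SD (bars end at 0). The upper row shows copies with more RNA after UVB and the lower row copies with less, and the panel of Repeat_2607824.402066 shows UVB replicate 3 at the level of the controls.

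Some copies had reads in 1 group alone. Reads in all 3 UVB libraries and in no control were found for 6 MER41 copies, or 0.360% of those with a read, against 0.539% of all repeat copies with a read. The reverse held for 14 copies, or 0.840%, against 0.966%. On the UVB side Repeat_1909727.286375 (MER41A) had 3, 8 and 20 reads after UVB and none in controls, and Repeat_3903054.631509 (MER41E) had 13, 16 and 2 after UVB and none in controls. With the control group set to a floor of 3 reads, each was 9.33-fold higher after UVB in summed RPM. The value was 4.94 without UVB replicate 3 for the first and 5.83 without control replicate 3 for the second. These values leave out the counting error of the group with reads, so they are not lower bounds.

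On the control side Repeat_84878.10026 (MER41A) had no read after UVB and 16, 18 and 14 reads in controls. With the UVB group set to the same floor of 3 reads, it was 17.7-fold lower after UVB. Repeat_4465716.727367 (MER41B) had none after UVB and 17, 7 and 15 in controls, 14.4-fold lower on that floor. Repeat_1261005.197444 (MER41A) had none after UVB and 12, 4 and 5 in controls, 7.75-fold lower on that floor. With any 1 library left out, the smallest values of these 3 copies on that floor were 11.2-fold, 9.10-fold and 4.89-fold. All of the one-sided copies named here were picked because they were one-sided, and all averaged under 0.5 FPKM. In a fit with no level filter, over all repeat copies with a read, limma called 0 of the 1667 MER41 copies (lowest adjusted p = 0.514) and had 41 at an unadjusted p under 0.05.

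The authors' deposited table gives an adjusted p for 1666 MER41 copies. It is under 0.05 for 5 of them, or 0.3%, against 0.142% of the 110230 repeat copies with a value, 0.0517% higher and 0.0907% lower. The 4 lower copies in the authors' deposited table are Repeat_84878.10026 (adjusted p = 0.00445), Repeat_1865845.279995 (0.00779), Repeat_4465716.727367 (0.0197) and Repeat_1326048.207803 (0.0399), and the higher one is Repeat_2607824.402066 (log2 fold change 3.56, SE 1.01, adjusted p = 0.0242). Only 2 of the 5 reach a mean of 0.5 FPKM. Repeat_1326048.207803 (MER41B) had 1, 0 and 0 reads after UVB and 5, 22 and 20 in controls. The table rests on the same 6 libraries, so it adds no independent evidence.

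Most tested genes of the interferon pathway were higher after UVB. Of 27 interferon pathway genes, 23 were tested, and 15 rose and 0 fell (limma on log2(FPKM + 1), adjusted p under 0.05), with a median log2 fold change of 0.37, against 17.0% of 14921 genes called higher, 11.0% lower and a median of 0.04 over all genes.

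STAT2 and IRF9, which act in type I interferon signalling, rose by log2 fold changes of 0.63 and 0.56, and STAT3 by 0.61. Among receptors and kinases the interferon gamma receptor IFNGR1 rose by 0.46, the interferon lambda receptor IFNLR1 by 0.37, JAK2 by 0.28, TYK2 by 0.22 and JAK1 by 0.19, and IRF2, a regulator of interferon genes, by 0.25, while the type I receptor IFNAR1 stood at 0.12 and did not pass (limma adjusted p = 0.245). The calls of IFNLR1, IRF2, JAK1, JAK2 and TYK2 were lost in several of the alternatives, among them the removal of single libraries. Among targets, ISG15, a ubiquitin-like modifier, rose by 1.86, the antiviral GTPase MX1 by 1.46, OAS1, which senses double-stranded RNA, by 1.13 and IFIT1, which binds viral RNA, by 0.95. GBP1, a known target of interferon gamma, rose by 0.58. The chemokine CXCL10, another such target, averaged 0.820 ± 0.103 FPKM after UVB and 0.207 ± 0.115 FPKM in controls (SD, n = 3 each), and its rise of 0.59 depends on the pseudocount at this level, with 1.66 for a pseudocount of 0.1 and 1.94 in edgeR. IRF1, an interferon-induced transcription factor, stood at 0.08 and did not pass (limma adjusted p = 0.30). The other tested genes of the list that did not pass include IFNGR2, the second chain of the interferon gamma receptor, at 0.006. They also include IFNAR2 at -0.15, IL10RB at 0.45, GBP2 at 0.05, SOCS1 at 0.14 and SOCS3 at 0.11 (limma adjusted p of 0.142 or more for each).

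The genes tied to MER41 differed among themselves. IFI6, an interferon-induced membrane protein, measured 556, 600 and 561 FPKM after UVB and 167, 142 and 172 FPKM in controls (log2 fold change 1.83 ± 0.078, SE, limma adjusted p = 7.3e-05). SECTM1, a secreted and transmembrane protein, measured 15.7, 16.3 and 17.8 FPKM after UVB and 9.14, 7.92 and 6.61 FPKM in controls (0.99 ± 0.111, SE, limma adjusted p = 0.0016). Neither gene overlapped between groups. APOL1, a lipid-binding protein of innate immunity, measured 4.42, 5.16 and 7.87 FPKM after UVB and 9.27, 4.19 and 10.7 FPKM in controls, with overlap (-0.36, limma adjusted p = 0.48). AIM2, a sensor of cytosolic DNA whose promoter window also holds the response element core, was at or under 0.08 FPKM in every library and was not tested. Whether the MER41 copies near these genes had reads was not analysed here.

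**Figure D5:**
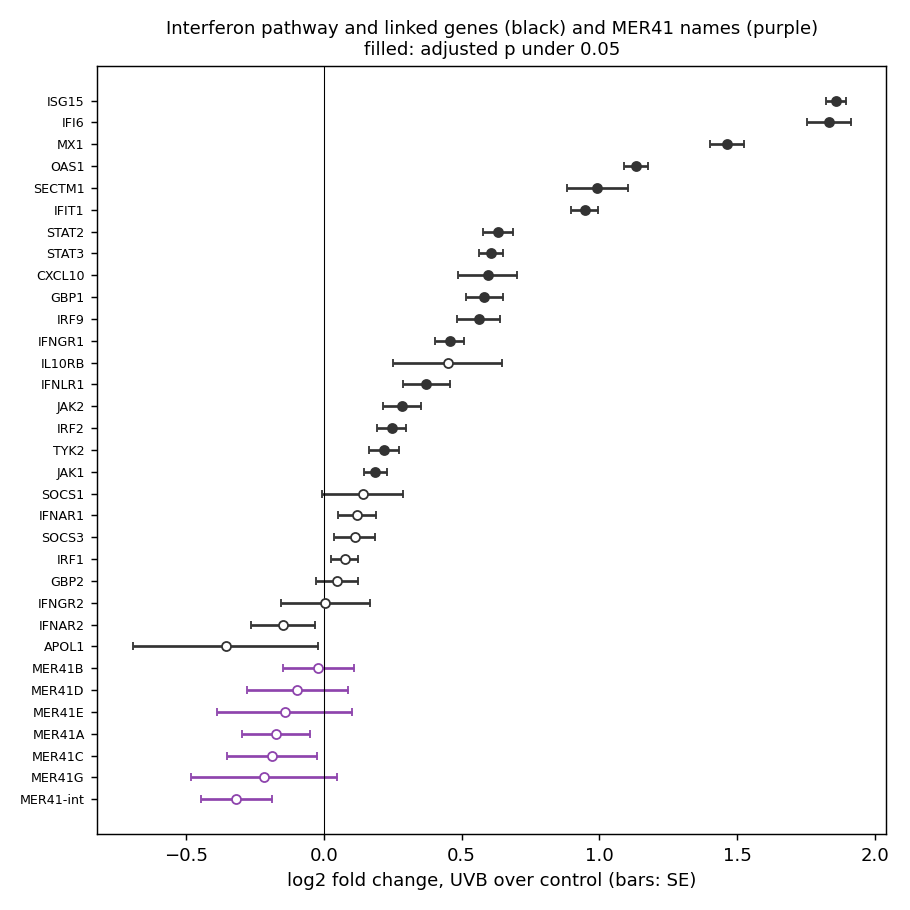
Log2 fold change, UVB over control, with its standard error, for MER41 names (purple) and for tested genes of the interferon pathway and those tied to MER41 (black), filled where the adjusted p was under 0.05. Names are on log2(RPM + 0.1) and genes on log2(FPKM + 1), so sizes are not compared between them: ISG15 stands at 1.86 and IFI6 at 1.83, and the MER41 names lie between -0.32 and -0.02.

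Among 17 genes that silence endogenous retroviruses or act on their RNA, 5 rose and 0 fell, with a median log2 fold change of 0.14 (limma adjusted p under 0.05; over all tested genes 17.0% rose, 11.0% fell and the median was 0.04). ADAR, which edits double-stranded RNA and is itself interferon-induced, rose by 0.72, MPHOSPH8, a subunit of the HUSH silencing complex, by 0.47 and DNMT1, the maintenance DNA methyltransferase, by 0.43. MORC2, which works with HUSH, rose by 0.30 and the histone demethylase KDM1A by 0.22, and the count of 5 became 3 without UVB replicate 1, UVB replicate 2, control replicate 1 or control replicate 3, and under TMM scaling over genes. TRIM28, the corepressor that zinc finger proteins bring to endogenous retroviruses, stood at 0.13 (limma adjusted p = 0.0645), and DNMT3B, a de novo DNA methyltransferase, at -0.30 (limma adjusted p = 0.173). The lower summed level of keratinocyte markers and the higher level of COL1A1 after UVB were seen in the same libraries as these gene differences. Their part in the results was not tested.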

How the data were processed

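RNA-seq of 6 HaCat libraries, 3 UVB and 3 control, grouped by sample title, was analysed from processed tables. Per the labels' protocols, cells grew in 60 mm dishes, were cultured for 24 h after irradiation and were lysed in Trizol, and libraries used 1 µg of total RNA. Per the submitters' processing notes, HISAT2 2.0.5, StringTie and DESeq were used with the human build hg38. Which tool counted reads, with what strand setting and repeat annotation, and how multiply mapped reads were treated is not given in the sources used here.

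The authors deposited FPKM values of 58735 genes and 771683 repeat copies, and read counts of 74 repeat copies. Library totals followed from both, and every non-zero FPKM value (100%) then came out as whole units, to 0.01. The authors' comparison is deposited with its mean normalised count (a signal scaled by size factors), log2 fold change, its error, a test score and p-values, per the file headers.

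Sums per name are FPKM × length in kb, in RPM. The test was limma 3.58.1 (R 4.3.3, eBayes, trend on) over whole tables, with group as the only term and a Benjamini-Hochberg adjusted p under 0.05. It used log2(FPKM + 1) for copies and genes averaging 0.5 FPKM or more, and log2(RPM + 0.1) for names averaging 0.1 RPM or more. Fold changes with a pseudocount understate low features. Totals were tested by exact permutation in scipy 1.17.1. Alternatives were edgeR 4.0.16 and DESeq2 1.42.0 on recovered reads, other pseudocounts, filters and scalings, a block by replicate number and removal of single libraries. The model fits were also run on simulated data, whose detection rates are not given here. The simulated rows were independent, with no shift shared by all repeats of a library.

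All names were named, and copies by rule: the 12 highest levels, the 5 highest and 5 lowest log2 fold changes and the most-read copy of each name (27 copies, 26 tested). Copies from the authors' table, one-sided copies, single-library copies, copies of equal length and those on 1 first number were chosen after their values were seen. The members and lists were chosen with earlier results of these data known. Genes holding the copies were not used here, and some genes of the lists are not reported here. Intervals of summed RPM ratios cover counting error only, and ratios on a floor leave out the counting error of the group with reads.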

Additional observations from a re-analysis of the deposited data

How the results depend on the processing

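The log2 fold changes of 4 names turned positive under other settings. With edgeR, DESeq2 and limma rescaled by TMM over names (the last chosen after seeing the data), MER41A gave 0.00498, 0.0024 and 0.0063, MER41B 0.16, 0.16 and 0.16, MER41D 0.087, 0.084 and 0.081, and MER41E 0.023, 0.021 and 0.030. These settings centre repeat names on each other, which is how they are built. With limma rescaled by TMM over genes, all 7 MER41 names stayed negative, at -0.37 to -0.07. Leaving out 1 library at a time gave MER41B -0.12 to 0.084 (positive without UVB replicate 3 at 0.070 or control replicate 2) and MER41D -0.18 to 0.028 (positive without control replicate 2). The other names stayed negative, with MER41-int at -0.39 to -0.22, MER41A at -0.28 to -0.10, MER41C at -0.28 to -0.13, MER41E at -0.32 to -0.04 and MER41G at -0.48 to -0.07. Leaving out 1 library turned the sign of 6 named copies, with ranges of -0.011 to 0.24 for Repeat_1466042.225974, -0.089 to 0.19 for Repeat_1587088.242302, -0.33 to 0.00043 for Repeat_3239746.522427, -0.22 to 0.022 for Repeat_3740082.604538, -0.32 to 0.072 for Repeat_4287055.696979 and -0.37 to 0.052 for Repeat_4287055.696980. No MER41 name passed the threshold in any alternative run. DESeq2 called 1 MER41 copy higher and 1 lower, and 0 were called by every other alternative, where the lowest adjusted p ran from 0.0944 to 0.514. edgeR with filterByExpr, added after seeing the data, tested 149 copies, called 0 (0.122% of all) and had 18 at an unadjusted p under 0.05. Of the interferon pathway list, 10 to 15 genes rose in every alternative run. The silencing list had 3 genes under TMM over genes and with a replicate block, and 3 to 5 with 1 library left out. Deviations from the group mean correlated between same-numbered libraries at -0.11, 0.092 and -0.097 over names. Over genes these correlations were 0.048, 0.022 and 0.030. With 3 libraries per group, such values cannot decide whether the numbers pair the libraries. With a replicate block, MER41-int had -0.32 at an adjusted limma p of 0.144, 17 repeat copies in all were called against 22 without it, none of them MER41, and the interferon pathway list had 10 genes called higher. Leaving out copies that overlap exons was not run, since positions of copies were not used here. Of the 1667 copies with a read, 1558 averaged under 0.5 FPKM, and with a filter of 0.1 FPKM (559 copies tested) or none (1667 tested) limma called 0.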
